A study of Homo sapiens with 18 samples.

Results

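The ERBB receptors, their ligands and the receptor inhibitor ERRFI1 were followed in EpCAM+ cells of 2 hepatocellular carcinoma (HCC) lines after disulfiram (DSF) or 5-fluorouracil (5-FU). The group holds 10 genes of the 19722 named on the array: the receptors EGFR, ERBB2, ERBB3 and ERBB4, the ligands AREG, EREG, HBEGF, TGFA and BTC, and ERRFI1. Every probe assigned to these genes by RefSeq identifier or symbol was taken, which gave 17 probes of 42405. Of these, 14 probes for 9 genes could be tested, and each of the 14 was well above background on all 18 arrays. Huh1 and Huh7 are established human HCC lines, and EpCAM is a surface protein used in the study to mark tumor-initiating cells. Each line gave control cells and cells treated for 48 hours with DSF (0.1 µM) or 5-FU (1 µM). DSF is an inhibitor of aldehyde dehydrogenase, and 5-FU is a pyrimidine analog. RNA of sorted EpCAM+ cells was hybridized to 1-colour arrays, 3 arrays per group. The methods name copper chloride together with DSF and give no vehicle for the controls, so the effects of DSF and of copper cannot be told apart. The methods also describe 3 independent experiments, and the spread given below is that between the 3 arrays of a group.

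EGFR, ERBB3 and ERBB4 bind growth factors of the epidermal growth factor family, whereas ERBB2 has no known ligand and acts as the preferred partner of the other receptors. The ligands are made as membrane-bound precursors and are released by proteases of the ADAM family. A ligand-bound receptor dimer signals through the RAS-ERK and PI3K-AKT branches, and ERRFI1 is a cytoplasmic protein that binds the kinase domains of EGFR and ERBB2 and inhibits them. In liver, EGFR and its ligands are known for their part in hepatocyte growth after tissue loss.

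The ligand transcripts carried the largest changes. AREG, HBEGF and BTC rose after both drugs in both lines, and EREG rose in 3 of the 4 comparisons against control. ERBB2 fell in all 4 comparisons, whereas the main ERBB3 probe fell after DSF in both lines and after 5-FU in Huh1. The falls after 5-FU were measured relative to the array's 75th percentile and turned to rises when arrays were scaled on spike-in RNA, as given beside each of them.

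The starts of AREG, EREG, BTC and HBEGF are shown first, because these are the ligand genes called higher in at least 3 of the 4 comparisons against control. AREG, EREG and BTC lie next to each other on chromosome 4, in the order MTHFD2L, EPGN, EREG, AREG, BTC and PARM1, and HBEGF lies on chromosome 5. The windows run from 250 bases before to 50 bases after the start site and were taken from RefSeq on GRCh38.p14, which is not the build of the array design, so the positions belong to the windows and not to the probes. AREG is at chr4:74444886-74445185 on the plus strand, EREG at chr4:74364895-74365194 on the plus strand, BTC at chr4:74794474-74794773 on the minus strand and HBEGF at chr5:140346554-140346853 on the minus strand. Capitals mark matches, on either strand, to the cAMP response element TGACGTCA, the AP-1 letters TGANTCA and the TATA letters TATAAA.
AREG: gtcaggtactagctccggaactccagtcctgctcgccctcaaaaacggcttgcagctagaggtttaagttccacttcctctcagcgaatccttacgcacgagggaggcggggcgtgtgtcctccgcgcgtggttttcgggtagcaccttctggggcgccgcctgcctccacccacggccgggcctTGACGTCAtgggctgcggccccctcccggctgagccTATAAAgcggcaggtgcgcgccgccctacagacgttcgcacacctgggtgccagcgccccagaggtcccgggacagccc
EREG: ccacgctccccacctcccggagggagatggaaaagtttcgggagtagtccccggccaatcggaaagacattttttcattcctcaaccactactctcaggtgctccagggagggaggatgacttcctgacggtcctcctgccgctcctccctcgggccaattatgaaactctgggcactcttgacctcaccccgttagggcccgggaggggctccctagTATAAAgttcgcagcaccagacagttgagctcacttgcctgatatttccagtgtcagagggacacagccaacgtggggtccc
BTC: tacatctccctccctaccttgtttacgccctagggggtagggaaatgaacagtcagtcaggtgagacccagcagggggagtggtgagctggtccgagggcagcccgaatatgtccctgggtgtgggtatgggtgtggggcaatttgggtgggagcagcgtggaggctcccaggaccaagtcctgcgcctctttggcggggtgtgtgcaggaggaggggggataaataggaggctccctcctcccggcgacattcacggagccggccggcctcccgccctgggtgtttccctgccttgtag
HBEGF: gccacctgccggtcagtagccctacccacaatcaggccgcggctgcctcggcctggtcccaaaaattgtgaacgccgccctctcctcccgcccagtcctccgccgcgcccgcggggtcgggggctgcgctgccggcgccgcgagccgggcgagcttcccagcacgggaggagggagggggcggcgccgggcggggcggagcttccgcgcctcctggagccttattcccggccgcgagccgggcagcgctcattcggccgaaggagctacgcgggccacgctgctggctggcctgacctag
The AREG window held the cAMP response element at base -65 and TATAAA at base -29 relative to the start site, and the EREG window held TATAAA at base -32. Of 35116 promoter windows of the same length, 1.85% held TGACGTCA, 11.5% held TATAAA and 7.71% held TGANTCA. The BTC and HBEGF windows held none of these letters. The GC box GGGCGG, which 45.0% of windows hold on either strand and which is not capitalized, occurred in the windows of AREG, BTC and HBEGF. Of the 5 GC boxes of HBEGF, the last pair shared 1 base, and no other matches in these windows overlapped. The matches describe the letters of these windows only.

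Levels are given as log2 of the processed signal over the array's 75th percentile, so that a value of 0 lies at that percentile. Levels of different probes are not comparable with each other. The arrays lay on 3 slides. All Huh1 arrays except DSF replicate 3 were on slide 1, which held no Huh7 array. Slide 2 held that array and the Huh7 arrays except DSF replicates 2 and 3, which were on slide 3. Per array, 59.9% to 71.1% of probes were well above background, and replicate arrays correlated at 0.989 to 0.997 across probes. The 75th percentile relative to the spike-in mean was -3.27 to -3.23 log2 units in Huh1 controls and -3.26 to -3.10 in Huh7 controls, but -2.45 to -2.41 and -2.32 to -2.02 after 5-FU. Accordingly, scaling on 7 spike-in probes moved the median change of all probes after 5-FU to 0.79 in Huh1 and 0.94 in Huh7, against -0.03 and -0.05 with the percentile. All 9 markers of hepatocytes and liver cancer were well above background on all arrays. Of markers of other cells, 3 of 4 leukocyte genes, 2 of 3 endothelial genes, 3 of 3 cholangiocyte genes and 0 of 6 fibroblast and stellate genes were above background on every array. The mean level of EPCAM itself, the gene of the sorting marker, was 2.62 in Huh1 controls, 1.96 after DSF and 3.01 after 5-FU. In Huh7 it was 5.49 in controls, 5.00 after DSF and 5.74 after 5-FU. The summed level of the fibroblast genes was -3.27 to -3.03 in Huh7 controls, -4.14 to -3.83 after DSF and -2.02 to -1.54 after 5-FU. In Huh1 it was -4.65 to -3.20, -4.54 to -3.70 and -5.01 to -4.60 in the same order. That of the cholangiocyte genes was 4.92 to 5.92 in Huh1 controls, 6.36 to 6.42 after DSF and 5.82 to 6.20 after 5-FU, and that of the leukocyte genes was -0.20 to -0.13 in Huh7 controls, -1.08 to -0.93 after DSF and -0.83 to -0.34 after 5-FU. The part of these differences in the results was not tested. In bulk RNA of this kind, fewer cells expressing a gene and less RNA per cell cannot be told apart.

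In Huh1, DSF changed most member probes. By limma with a Benjamini-Hochberg adjusted p under 0.05, 9 of 14 tested probes were higher and 3 were lower, while 23.9% and 20.3% of all 29894 tested probes were (44.2% in either direction). The median change of the members was 0.86, against 0.00 for all probes. The 3 DSF and 3 control arrays did not overlap for 13 of the 14, as for 59.1% of all probes. In Huh7, 7 member probes were higher and 3 were lower after DSF, beside 27.3% and 19.4% of all probes (46.7% in either direction), with a median of 0.21 against 0.08. The groups did not overlap for 10 of 14 there, and for 60.5% of all probes. When only arrays on the slide of the controls were used, a choice made after seeing the data, 9 member probes were higher and 2 lower in Huh1. In Huh7, where this leaves 1 DSF array, 5 were higher and 2 lower.

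5-FU gave similar numbers of calls against the same control arrays. In Huh1, 9 member probes were higher and 2 were lower, beside 22.2% and 26.0% of all probes (48.2% in either direction), and the median was 0.58 against -0.03. In Huh7, 7 were higher and 3 were lower, beside 27.3% and 29.7% of all probes (57.1% in either direction), and the median was 0.40 against -0.05. The groups did not overlap for 12 and 11 member probes, and for 56.2% and 66.3% of all probes. With spike-in scaling 13 member probes were higher and 0 lower after 5-FU in Huh1, and all 14 were higher in Huh7. For DSF the same scaling gave 9 rises with 2 falls in Huh1, and 4 rises with 2 falls in Huh7. Every value of the falls described below is therefore relative to the array as a whole.

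**Figure D1:**
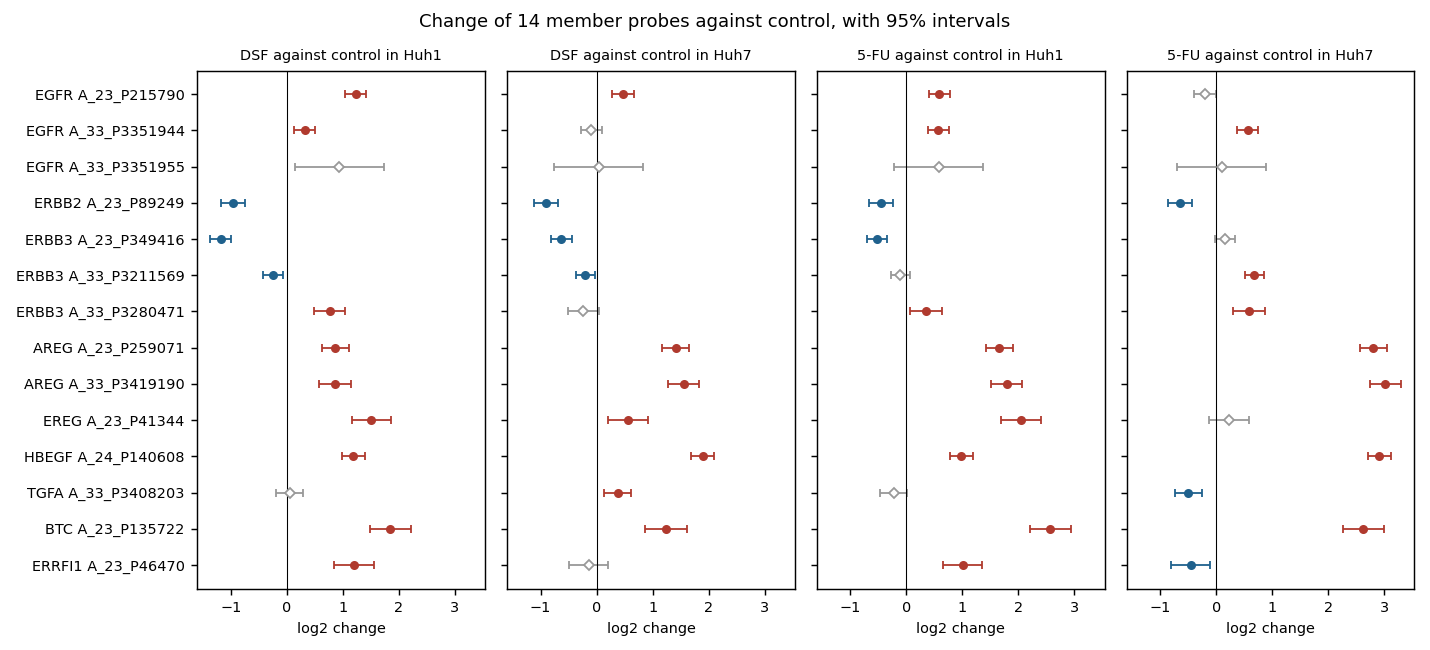
Change (log2, x axis) of the 14 tested member probes (y axis) for each drug against control in each line, from limma with 3 arrays per group. Points are estimates and bars 95% intervals, filled red where higher and filled blue where lower at an adjusted p under 0.05, and open gray otherwise. The points of AREG, HBEGF and BTC lie right of 0 in every panel and that of ERBB2 lies left of 0 in every panel.

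Among the ligands, AREG encodes amphiregulin, which binds EGFR only. In Huh1 its probe A_23_P259071 stood at 3.58, 3.68 and 3.69 on the control arrays, at 4.50, 4.46 and 4.56 after DSF, and at 4.99, 5.46 and 5.47 after 5-FU. In Huh7 it stood at 1.13, 1.08 and 1.10 on the control arrays, at 2.51, 2.55 and 2.49 after DSF, and at 4.07, 3.93 and 3.72 after 5-FU. In each line all treated arrays lay above all control arrays, and all 5-FU arrays lay above all DSF arrays. DSF raised AREG by 0.86 (SE 0.11, 1.82-fold, adjusted p = 2.67e-05, limma) in Huh1 and by 1.41 (SE 0.11, 2.67-fold, adjusted p = 3.01e-07) in Huh7. 5-FU raised it by 1.66 (3.16-fold, adjusted p = 9.35e-08, limma) in Huh1 and by 2.80 (6.98-fold, adjusted p = 1.99e-10) in Huh7. The other AREG probe, A_33_P3419190, changed by 0.86, 1.55, 1.79 and 3.02 in the same 4 comparisons. The order of the 6 groups was Huh1 5-FU, Huh1 DSF, Huh7 5-FU, Huh1 control, Huh7 DSF and Huh7 control on both probes, and no neighbours in this order overlapped. Huh7 controls were thus 5.83-fold below Huh1 controls (adjusted p = 3.86e-11, limma), and no slide held both groups.

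HBEGF encodes the heparin-binding ligand of EGFR and ERBB4. Its levels in Huh1 were -3.47, -3.32 and -3.31 on the control arrays, -2.19, -2.28 and -2.07 after DSF, and -2.55, -2.30 and -2.32 after 5-FU. In Huh7 they were -4.92, -4.96 and -4.96 on the control arrays, -3.06, -3.03 and -3.08 after DSF, and -1.81, -2.20 and -2.10 after 5-FU. Treated and control arrays were separate in both lines. The rise was 1.19 (SE 0.10, adjusted p = 3.8e-07, limma) after DSF and 0.98 (SE 0.10, adjusted p = 2.23e-06) after 5-FU in Huh1. It was larger in Huh7, at 1.89 (3.71-fold, adjusted p = 4.49e-09, limma) after DSF and 2.91 (7.52-fold, adjusted p = 6.19e-11) after 5-FU. The probe is dim, and with normexp background correction Huh1 gave rises of 0.84 after DSF and 0.60 after 5-FU, and Huh7 gave 0.96 and 1.70. With that correction the DSF effect did not pass the test of a difference between lines (0.12, adjusted p = 0.436, limma). From the highest level to the lowest the groups ran Huh7 5-FU, Huh1 DSF, Huh1 5-FU, Huh7 DSF, Huh1 control and Huh7 control, and only Huh7 5-FU and Huh1 DSF overlapped as neighbours.

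BTC encodes betacellulin, another ligand of EGFR and ERBB4. In Huh1 its levels were -5.06, -4.32 and -4.48 on the control arrays, -2.75, -2.75 and -2.82 after DSF, and -2.44, -1.84 and -1.88 after 5-FU. In Huh7 they were -4.01, -3.97 and -4.03 on the control arrays, -2.66, -2.92 and -2.71 after DSF, and -1.42, -1.44 and -1.26 after 5-FU. No treated array reached down to the control arrays, although Huh1 control replicate 1 lay below the other two. DSF raised BTC by 1.85 (SE 0.17, 3.60-fold, adjusted p = 1.22e-06, limma) in Huh1 and by 1.24 (SE 0.17, 2.36-fold, adjusted p = 4.88e-05) in Huh7. 5-FU raised it by 2.57 (5.93-fold, adjusted p = 8.42e-08, limma) and 2.63 (6.18-fold, adjusted p = 1.53e-08). This probe too is dim, and normexp gave 0.94, 0.71, 1.40 and 1.77 for these 4 changes. The DSF groups of both lines overlapped, and the other neighbours in the order Huh7 5-FU, Huh1 5-FU, Huh7 DSF, Huh1 DSF, Huh7 control and Huh1 control did not.

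EREG encodes epiregulin, which binds EGFR and ERBB4. In Huh1 it stood at -0.80, -0.60 and -0.45 on the control arrays, at 0.89, 0.88 and 0.90 after DSF, and at 0.98, 1.67 and 1.65 after 5-FU. In Huh7 it stood at 0.42, 0.44 and 0.44 on the control arrays, at 1.18, 0.90 and 0.90 after DSF, and at 0.86, 0.40 and 0.75 after 5-FU. The Huh7 5-FU arrays lay on both sides of the controls, and 5-FU replicate 1 was low among the Huh1 5-FU arrays. EREG rose by 1.51 (SE 0.17, 2.85-fold, adjusted p = 5.67e-06, limma) after DSF and by 2.05 (SE 0.17, 4.15-fold, adjusted p = 3.76e-07) after 5-FU in Huh1. In Huh7 it rose by 0.56 (SE 0.17, adjusted p = 0.0133, limma) after DSF, and the value after 5-FU was 0.23 (adjusted p = 0.251, 95% interval -0.12 to 0.59). Within slide 2 the DSF value in Huh7 was 0.75 with an adjusted p of 0.0509 (limma), and with spike-in scaling it was 0.38 with an adjusted p of 0.214. Spike-in scaling gave 1.22 (adjusted p = 0.000142, limma) for 5-FU in Huh7.

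TGFA encodes transforming growth factor alpha. On probe A_33_P3408203 its Huh7 levels were -0.28, -0.35 and -0.37 on the control arrays, -0.30, 0.19 and 0.22 after DSF, and -0.80, -0.82 and -0.87 after 5-FU. The high values after DSF were those of the arrays on slide 3, and the DSF array on slide 2 lay among the controls. DSF gave 0.37 in Huh7 (adjusted p = 0.0128, limma) over all arrays and 0.04 (adjusted p = 0.84) within slide 2, and the call was also lost without either DSF array of slide 3. 5-FU lowered TGFA by 0.50 in Huh7 (the log2 change was -0.50, adjusted p = 0.00137, limma), but the value was 0.49 with spike-in scaling. In Huh1, where levels ran from -0.50 to -0.09 over all groups, the changes were 0.05 after DSF and -0.23 after 5-FU (adjusted p = 0.756 and 0.105, limma). The latter value passed with slide as a block (adjusted p = 0.00941, limma), and spike-in scaling gave 0.60. The other TGFA probe was well above background on 1 Huh7 control array only.

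**Figure D2:**
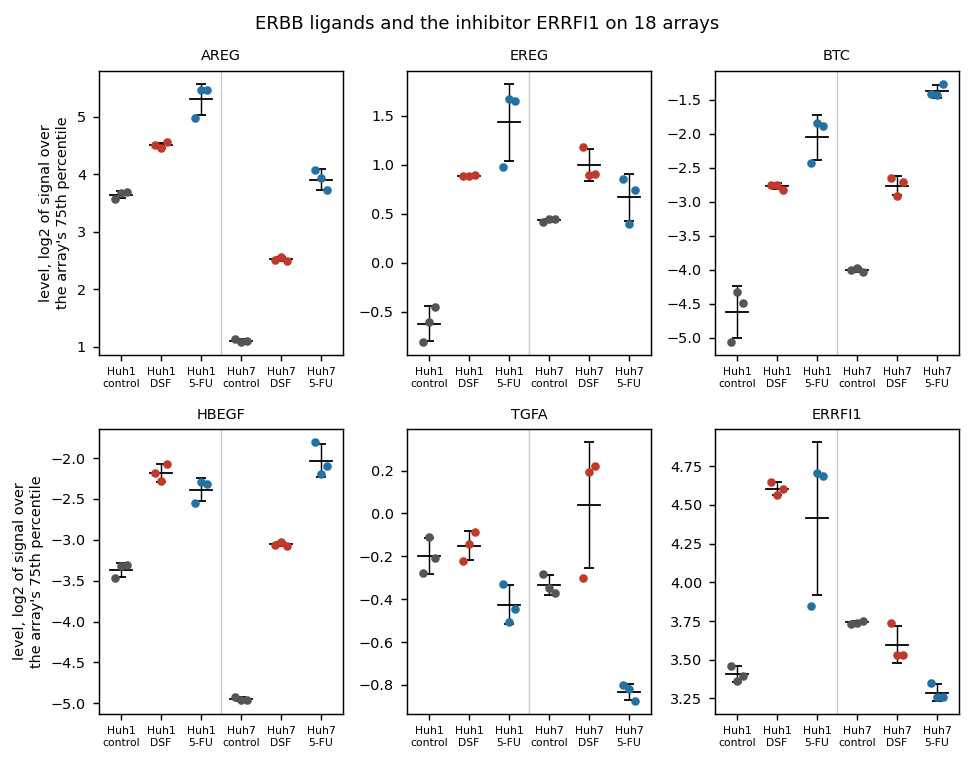
Level (log2 of the signal over the array's 75th percentile, y axis) of the 5 ligands and ERRFI1 in the 6 groups (x axis). Each point is an array (gray control, red DSF, blue 5-FU), horizontal lines are means and bars SDs of 3 arrays, and each panel has its own scale. AREG, BTC and HBEGF lie above their controls in all treated groups, and ERRFI1 does so in Huh1 only.

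Of the receptors, ERBB2 was measured by probe A_23_P89249. In Huh1 it stood at 0.34, 0.23 and 0.24 on the control arrays, at -0.71, -0.69 and -0.67 after DSF, and at 0.10, -0.33 and -0.33 after 5-FU. In Huh7 it stood at 2.27, 2.26 and 2.26 on the control arrays, at 1.36, 1.38 and 1.32 after DSF, and at 1.45, 1.73 and 1.65 after 5-FU. The groups of each line did not overlap, with DSF lowest, 5-FU between and control highest. ERBB2 was 1.95-fold lower after DSF in Huh1 (log2 change -0.96, SE 0.10, adjusted p = 3.3e-06, limma) and 1.88-fold lower in Huh7 (-0.91, SE 0.10, adjusted p = 6.07e-06). These falls were -0.83 and -1.09 with spike-in scaling, and -0.97 and -0.90 within a slide. After 5-FU the changes were -0.46 (adjusted p = 0.00168, limma) in Huh1 and -0.65 (adjusted p = 6.32e-05) in Huh7, and with spike-in scaling they turned to 0.37 and 0.33. Huh7 controls lay 3.98-fold above Huh1 controls (adjusted p = 1.56e-10, limma), and every Huh7 array lay above every Huh1 array.

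ERBB3 encodes a receptor with little kinase activity that binds neuregulins and signals with ERBB2. Its 3 probes disagreed in direction in Huh1, and in Huh7 they had the same direction against control but different sizes. Probe A_23_P349416 (NM_001982, the full-length transcript) stood at 2.51, 2.48 and 2.51 in Huh1 controls, at 1.36, 1.31 and 1.29 after DSF, and at 2.23, 1.83 and 1.86 after 5-FU. In Huh7 it stood at 2.92, 2.96 and 2.91 on the control arrays, at 2.26, 2.28 and 2.36 after DSF, and at 3.17, 3.11 and 2.99 after 5-FU. This probe fell after DSF, with no overlap of the groups, by 1.18 on the log2 scale in Huh1 (2.26-fold lower, adjusted p = 1.43e-07, limma) and by 0.63 in Huh7 (1.55-fold lower, adjusted p = 4.44e-05). 5-FU lowered it in Huh1 (log2 change -0.52, adjusted p = 0.00019, limma, 0.30 with spike-in scaling), and the value in Huh7 was 0.16 (adjusted p = 0.133).
Probe A_33_P3211569 (NM_001005915, a short transcript without the kinase domain) differed most after 5-FU in Huh7. It stood there at 0.47, 0.60 and 0.45 on the control arrays and at 1.24, 1.04 and 1.27 after 5-FU, a rise of 0.68 (SE 0.08, adjusted p = 4.84e-06, limma). After DSF its changes were -0.25 (adjusted p = 0.0195, limma) in Huh1 and -0.21 (adjusted p = 0.0473) in Huh7, and within a slide these were -0.23 and -0.12 with adjusted p of 0.0708 and 0.54. The remaining probe A_33_P3280471, which carries the identifier of the full-length transcript, was dim. It stood at -4.29, -4.91 and -4.61 in Huh1 controls and at -3.77, -3.87 and -3.87 after DSF, a rise of 0.76 (adjusted p = 0.000261, limma), where the main probe fell. Its value after DSF in Huh7 was -0.24 (adjusted p = 0.147, limma). With 5-FU it gave 0.35 in Huh1 (adjusted p = 0.0383, limma) and 0.59 in Huh7 (adjusted p = 0.00141), and normexp correction gave -0.23 and 0.12. The Huh1 call was lost in 5 of the 6 fits without 1 array, and it was 0.20 (adjusted p = 0.196, limma) without control replicate 2. Which ERBB3 transcripts each of these probes detects in these cells was not tested.

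EGFR, the receptor of all 5 ligands, had 3 probes. Probe A_23_P215790 (NM_005228, the full-length transcript) stood in Huh1 at 0.16, -0.04 and -0.03 on the control arrays, at 1.27, 1.30 and 1.20 after DSF, and at 0.71, 0.57 and 0.56 after 5-FU. In Huh7 it stood at 1.03, 1.01 and 1.07 on the control arrays, at 1.47, 1.54 and 1.52 after DSF, and at 1.06, 0.65 and 0.81 after 5-FU. DSF arrays lay above all other arrays of their line, whereas the Huh7 5-FU arrays overlapped the controls. EGFR rose after DSF by 1.23 (SE 0.09, 2.34-fold, adjusted p = 1.28e-07, limma) in Huh1 and by 0.47 (SE 0.09, 1.39-fold, adjusted p = 0.000635) in Huh7, the latter being 0.30 with an adjusted p of 0.158 under spike-in scaling. After 5-FU it rose by 0.59 (adjusted p = 9.57e-05, limma) in Huh1, and the value in Huh7 was -0.20 (adjusted p = 0.0741), which became -0.30 (adjusted p = 0.00412) without 5-FU replicate 1 and 0.79 with spike-in scaling.
Probe A_33_P3351944 (NM_201283, a shorter transcript) stood in Huh7 at -0.28, -0.27 and -0.22 on the control arrays, at -0.35, -0.37 and -0.33 after DSF, and at 0.28, 0.10 and 0.54 after 5-FU. It gave the reverse order of the drugs in both lines. In Huh7 5-FU raised it by 0.56 (adjusted p = 6.58e-05, limma), and DSF gave -0.09 (adjusted p = 0.399). In Huh1 it rose by 0.57 after 5-FU and by 0.32 after DSF (adjusted p = 9.9e-05 and 0.00782, limma), the latter with an adjusted p of 0.232 under median scaling. Probe A_33_P3351955 (NM_201282) passed the threshold in no comparison over all arrays, but with slide as a block its 5-FU value in Huh1 was 0.58 with an adjusted p of 0.00095 (limma). Its Huh1 DSF arrays stood at -3.55, -3.84 and -1.72, so that the array on slide 2 alone was high. Its value for DSF in Huh1 was 0.93 over all arrays (adjusted p = 0.054, limma) and 0.27 within slide 1.
Neither of the 2 ERBB4 probes could be tested. A_33_P3211558 was well above background on 1 Huh7 5-FU array, and A_32_P183765 was on no array.

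**Figure D3:**
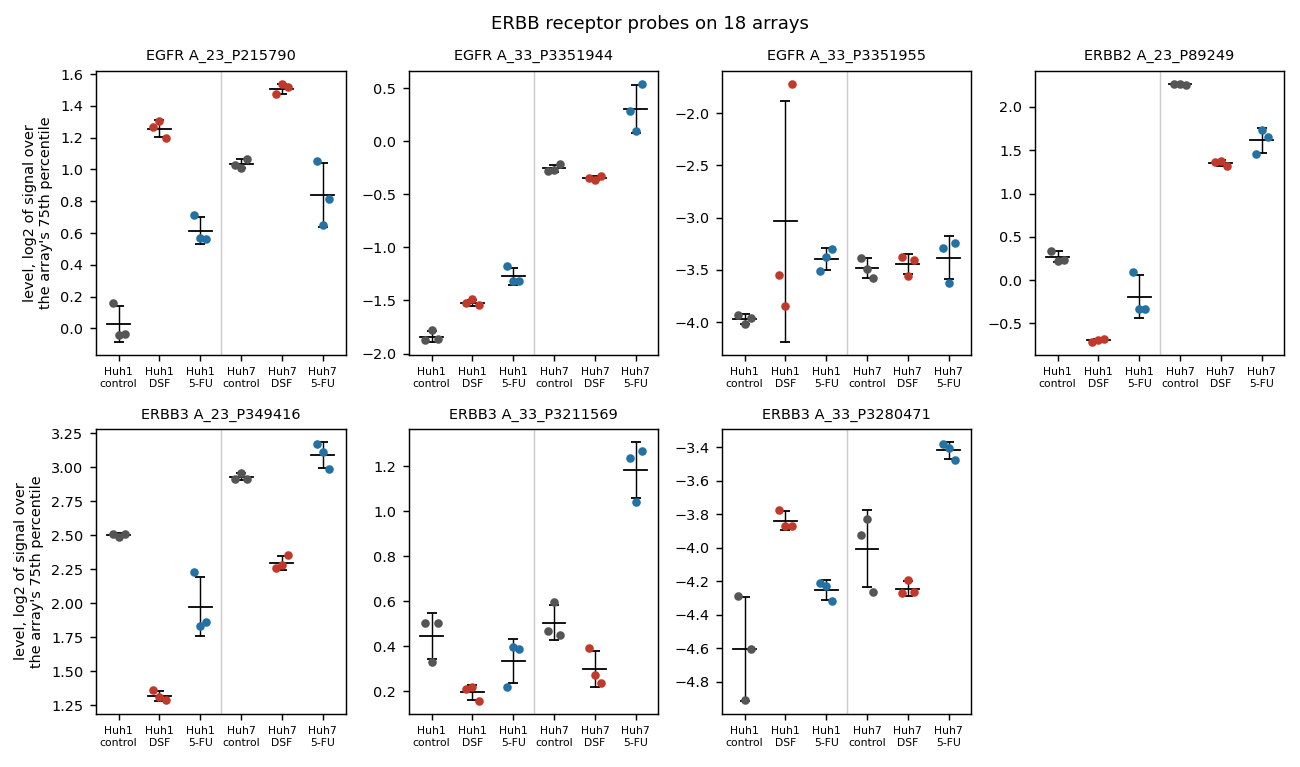
Level (log2 of the signal over the array's 75th percentile, y axis) of each tested probe of EGFR, ERBB2 and ERBB3 in the 6 groups (x axis). Each point is an array (gray control, red DSF, blue 5-FU), horizontal lines are means and bars SDs of 3 arrays, and each panel has its own scale. ERBB2 falls from control to 5-FU to DSF in each line, while the 3 probes of EGFR and the 3 of ERBB3 run differently.

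ERRFI1, the inhibitor, was raised in Huh1 only. It stood there at 3.46, 3.36 and 3.39 on the control arrays, at 4.65, 4.56 and 4.60 after DSF, and at 3.84, 4.71 and 4.69 after 5-FU. In Huh7 it stood at 3.73, 3.74 and 3.75 on the control arrays, at 3.73, 3.53 and 3.53 after DSF, and at 3.35, 3.26 and 3.26 after 5-FU. In Huh1 no treated array overlapped the controls, although 5-FU replicate 1 was well below the other 5-FU arrays. ERRFI1 rose by 1.20 (SE 0.16, adjusted p = 4.01e-05, limma) after DSF and by 1.01 (SE 0.16, adjusted p = 0.000171) after 5-FU in Huh1. In Huh7 the values were -0.14 (adjusted p = 0.498, limma) after DSF and -0.45 (adjusted p = 0.029) after 5-FU. The last call was lost in 5 of the 6 fits without 1 array (limma, adjusted p up to 0.0681), and with spike-in scaling the value was 0.53.

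The lines differed in these responses for part of the members. The DSF effect differed between Huh7 and Huh1 for 9 of 14 probes, 4 higher and 5 lower in Huh7, beside 40.3% of all probes (21.1% higher and 19.2% lower), and for 4 of 14 within a slide, where the Huh7 DSF group is 1 array. The estimates that no longer passed were near those over all arrays, for instance 0.65 within a slide against 0.70 for AREG A_33_P3419190, 0.49 against 0.55 for ERBB3 A_23_P349416 and -0.76 against -0.95 for EREG. The 5-FU effect differed for 8 of 14, 5 higher and 3 lower, beside 36.6% of all probes (18.8% higher and 17.8% lower). For HBEGF the 5-FU effect was larger in Huh7 by 1.93 (SE 0.14, adjusted p = 2.67e-07, limma), and for AREG by 1.14 (SE 0.16, adjusted p = 7.97e-05). For EREG it was smaller in Huh7, the difference being -1.82 (SE 0.24, adjusted p = 4.3e-05, limma), and for ERRFI1 it was -1.46 (adjusted p = 0.000237). The fall of ERBB2 after DSF did not pass the test of a difference between lines (0.05, 95% interval -0.25 to 0.36, adjusted p = 0.792, limma), nor did the rise of BTC after 5-FU (0.06, 95% interval -0.46 to 0.58, adjusted p = 0.878).

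Control cells of the lines also differed, with 7 member probes higher and 3 lower in Huh7, beside 34.5% and 36.2% of all probes (70.7% in either direction). The arrays of the lines did not overlap for 13 of 14, and for 77.2% of all probes. The lower ones were both AREG probes and HBEGF (log2 difference -1.58, adjusted p = 1.58e-09, limma). The higher ones were ERBB2, 2 probes each of EGFR and ERBB3, EREG (1.05, adjusted p = 4.62e-05, limma) and BTC (0.62, adjusted p = 0.00498). The difference of BTC was 0.20 with normexp correction (adjusted p = 0.127, limma). No slide held control arrays of both lines. With slide as a block, a fit in which 1 array, Huh1 DSF replicate 3, joins the lines, the differences were -2.62 for AREG A_23_P259071 and 1.97 for ERBB2 (adjusted p = 7.12e-07 and 3.12e-06, limma), but 0.69 for BTC (adjusted p = 0.0931).

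DSF and 5-FU were compared directly at their single doses, which differ. DSF gave 2 member probes higher and 7 lower than 5-FU in Huh1, beside 28.7% and 20.6% of all probes (49.2% in either direction). In Huh7 it gave 2 higher and 9 lower, beside 35.6% and 25.0% of all probes (60.5% in either direction). The arrays did not overlap for 11 and 13 member probes, and for 63.6% and 63.3% of all probes. AREG was lower after DSF than after 5-FU in both lines (-0.80 and -1.39, adjusted p = 4.63e-05 and 1.32e-07, limma), and so was BTC (-0.72 and -1.39, adjusted p = 0.00311 and 8.52e-06). EGFR probes disagreed here. Probe A_33_P3351944 was lower after DSF than after 5-FU in both lines (-0.25 and -0.66, adjusted p = 0.0288 and 1.58e-05, limma), the Huh1 call being lost in 4 fits without 1 array. The full-length EGFR probe was higher after DSF in both lines (0.64 and 0.67, adjusted p = 4.07e-05 and 1.67e-05, limma), but -0.05 and -0.49 with spike-in scaling. With that scaling no member probe was higher after DSF than after 5-FU, and 11 and 14 of 14 were lower. HBEGF was lower after DSF in Huh7 (-1.02, adjusted p = 6.13e-07, limma), and its difference in Huh1 was 0.21 (adjusted p = 0.09, 95% interval 0.00 to 0.42).

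Among the other genes of the pathway, 68 were listed and 66 could be tested by their brightest probe. After DSF in Huh1 24 were higher and 20 lower, beside 26.4% and 26.3% of all 15854 genes tested (52.7% in either direction). After DSF in Huh7 17 were higher and 13 lower, beside 29.1% and 24.1% (53.2%). After 5-FU in Huh1 21 were higher and 20 lower, beside 25.9% and 29.1% (54.9%). After 5-FU in Huh7 28 were higher and 17 lower, beside 32.5% and 31.0% (63.5%). With spike-in scaling these counts were 55 and 1 after 5-FU in Huh1, 58 and 1 in Huh7, and 20 and 10 and 8 and 11 after DSF.

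Among the other ligands, NRG4, a neuregulin that binds ERBB4, was lower after DSF (-0.84 in Huh1 and -0.39 in Huh7, adjusted p = 0.000113 and 0.0225, limma). After 5-FU it was -0.33 and -0.46 (adjusted p = 0.0479 and 0.00677, limma), and these 2 values turned to 0.50 and 0.52 with spike-in scaling. With slide as a block the DSF value in Huh7 was -0.33 (adjusted p = 0.245, limma), and the 5-FU call in Huh1 was lost (adjusted p = 0.065). Leaving out 1 array in turn lost these calls in 4 and 5 of 6 fits. NRG1 and NRG2, which bind ERBB3 and ERBB4, were lower after DSF in Huh1 (-0.62 and -1.19, adjusted p = 0.0275 and 0.000356, limma). The NRG1 levels of the Huh1 controls varied, with an SD of 0.49 against 0.04 after DSF. In Huh7 NRG1 was 37.7-fold below Huh1 in controls, rose by 0.68 after 5-FU (adjusted p = 0.0127, limma) and gave -0.05 after DSF (adjusted p = 0.863). The other NRG1 probe, A_23_P315815, had Huh7 means of -6.13 in controls, -5.67 after DSF and -4.67 after 5-FU. In Huh1 its means were -0.41 in controls and -1.25 after DSF. NRG2 was not well above background on any Huh7 array, and Huh1 controls were at least 50.8-fold above Huh7 controls. EGF rose by 0.49 after DSF in Huh7 (adjusted p = 0.0166, limma), and it was -0.37 and -0.35 after 5-FU in Huh1 and Huh7 (adjusted p = 0.062 and 0.066). NRG3 was above background in Huh7 after DSF on all 3 arrays and in no control array of either line, at least 4.03-fold higher than the Huh7 controls (adjusted p = 3.19e-05, limma). On the same probe 2 Huh7 5-FU arrays were above background too. The Huh7 means were -6.35 in controls, -4.34 after DSF and -5.15 after 5-FU. EPGN was above background on no array.

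Ligand release was represented by 6 genes, of which 5 were tested. TIMP3, an inhibitor of ADAM proteases, fell after DSF (-1.20 in Huh1 and -0.36 in Huh7, adjusted p = 1.87e-06 and 0.0224, limma) and after 5-FU (-0.52 and -0.48, adjusted p = 0.00211 and 0.00258). RHBDF1, which helps the protease ADAM17 to mature, rose after DSF (0.71 and 0.36) and after 5-FU (0.37 and 0.99), whereas its relative RHBDF2 fell after 5-FU (-1.42 and -0.85). ADAM10 fell slightly after DSF (-0.19 and -0.31, adjusted p = 0.0165 and 0.000593, limma). With spike-in scaling the TIMP3 values after 5-FU turned to 0.31 and 0.50, and RHBDF2 in Huh7 turned to 0.14. With slide as a block the DSF values in Huh7 did not pass for TIMP3 (-0.31, adjusted p = 0.22, limma) and RHBDF1 (0.32, adjusted p = 0.08), and that of ADAM10 in Huh1 was -0.14 with normexp correction (adjusted p = 0.103).

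Of 13 feedback inhibitors of the receptors and of ERK, 6 rose and 2 fell after DSF in Huh1, and 5 rose and 0 fell in Huh7. After 5-FU 9 rose and 1 fell in each line. Of all genes tested, 26.4% rose and 26.3% fell after DSF in Huh1, 29.1% and 24.1% in Huh7, 25.9% and 29.1% after 5-FU in Huh1, and 32.5% and 31.0% in Huh7. The median change of the 13 was 0.21, 0.21, 0.35 and 0.76 in these comparisons, against -0.02, 0.04, -0.03 and -0.01 for all genes. The ERK phosphatases DUSP4 and DUSP5 rose in all 4 comparisons. DUSP4 rose by 1.84 and 1.70 after DSF and by 2.45 and 1.40 after 5-FU in Huh1 and Huh7 (adjusted p = 0.000211, 0.000429, 1.69e-05 and 0.00127, limma). DUSP5 rose by 1.83 and 1.27 after DSF and by 1.44 and 1.37 after 5-FU. DUSP6 rose after 5-FU (1.90 and 1.11, adjusted p = 2.7e-07 and 1.72e-05, limma), as did SOCS4, an adaptor for EGFR degradation (0.53 and 1.70, adjusted p = 0.000677 and 6.88e-09).

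Of 12 genes induced by ERK, 6 rose and 2 fell after DSF in Huh1, 3 rose and 0 fell in Huh7, and 5 rose and 1 fell after 5-FU in each line, beside the same shares of all genes (26.4%, 29.1%, 25.9% and 32.5% higher). Their median change was 0.78 and 0.12 after DSF and 0.62 and 0.24 after 5-FU in Huh1 and Huh7, against -0.02, 0.04, -0.03 and -0.01 for all genes. FOSL1, a subunit of the AP-1 factor, rose by 2.19 after DSF and by 1.84 after 5-FU in Huh1 (adjusted p = 1.99e-06 and 9.49e-06, limma). In Huh7 it was not well above background on any control array, and it was at least 11.2-fold higher after DSF and at least 2.01-fold higher after 5-FU (adjusted p = 1.84e-08 and 0.000339, limma). The last of these gave -0.11 with normexp correction. PHLDA1 rose in all 4 comparisons, by 0.64 and 0.75 after DSF and by 0.75 and 2.32 after 5-FU (adjusted p = 0.00188, 0.000662, 0.000524 and 7.61e-09, limma). MYC fell after 5-FU (-0.41 and -1.91, adjusted p = 0.0158 and 1.9e-08, limma), with a value in Huh1 of 0.42 under spike-in scaling and -0.22 under quantile normalization (adjusted p = 0.169, limma).

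**Figure D4:**
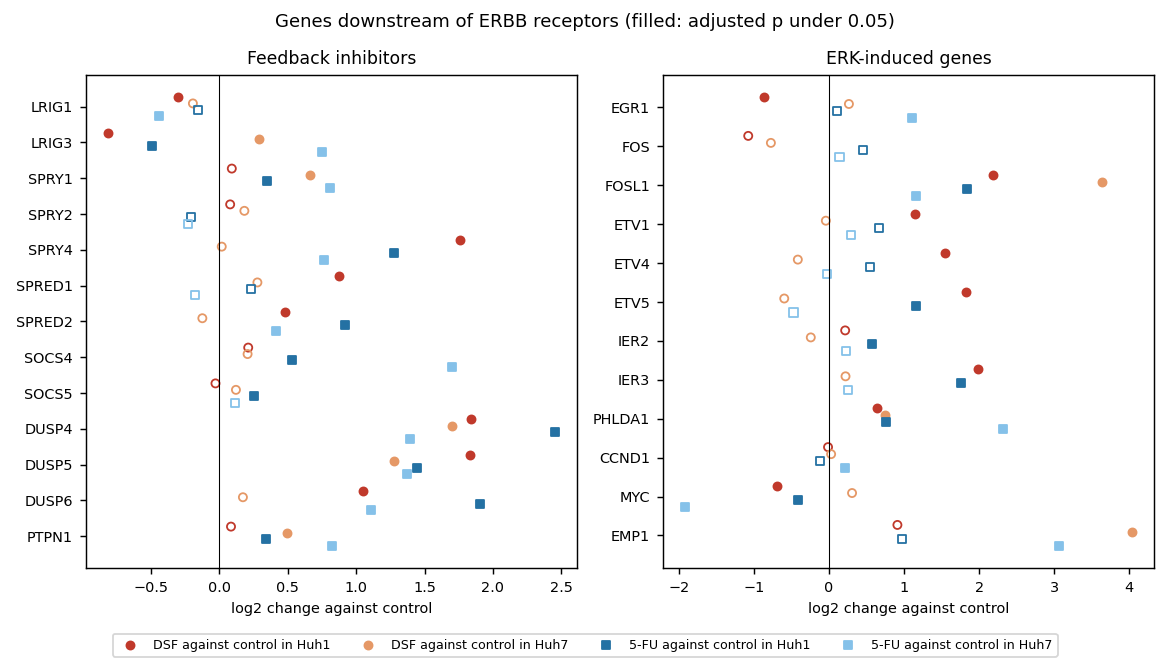
Change (log2, x axis) of 13 feedback inhibitors and 12 genes induced by ERK (y axis) for each drug against control in each line, by the gene's brightest probe. Filled symbols passed an adjusted p under 0.05 and open symbols did not. DUSP4, DUSP5, FOSL1 and PHLDA1 are filled and right of 0 in all 4 comparisons, and the FOSL1 values of Huh7 are fitted changes against control arrays that were not well above background.

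In the RAS-ERK cascade, MAPK3, which encodes the kinase ERK1, fell after DSF (-0.59 and -0.92, adjusted p = 0.00097 and 2.35e-05, limma) and after 5-FU (-0.71 and -0.83, adjusted p = 0.000192 and 2.99e-05). NRAS rose after DSF (0.45 and 0.27), and the kinase gene ARAF fell after 5-FU (-0.31 and -0.27). In the PI3K-AKT branch, AKT1 fell after DSF (-0.31 and -0.21) and after 5-FU (-0.46 and -0.23), and AKT2 (-0.39 and -0.17) and PIK3CB (-0.35 and -0.52) fell after 5-FU. Among adaptors and turnover factors, CBLC, a ubiquitin ligase of the CBL family, fell after DSF (-0.86 and -1.21), and CBL rose after 5-FU (0.61 and 0.32). The endocytic adaptor EPS15 was lower in all 4 comparisons (-0.62, -0.32, -0.65 and -1.07), whereas STAM2, which sorts ubiquitinated receptors, rose in all 4 (0.92, 0.73, 0.39 and 0.80). With spike-in scaling the falls of these genes after 5-FU turned to rises of 0.12 to 0.81, except that of EPS15 in Huh7. Several of the smaller changes were not stable in their calls. With slide as a block the DSF values in Huh7 were -0.20 for EPS15 (adjusted p = 0.402, limma) and -0.23 for AKT1 (adjusted p = 0.0746), and the EPS15 call was lost in 5 of 6 fits without 1 array. NRAS after DSF gave 0.18 in Huh7 with normexp correction (adjusted p = 0.113, limma) and 0.28 in Huh1 with median scaling (adjusted p = 0.0688). With spike-in scaling the DSF values in Huh1 were -0.18 for AKT1 (adjusted p = 0.354, limma) and -0.45 for MAPK3 (adjusted p = 0.0515). After 5-FU in Huh7, the call of CBL was lost in 5 of 6 fits without 1 array and that of AKT2 with median scaling (-0.14, adjusted p = 0.156, limma).

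The downstream lists also differed between untreated lines, on arrays of different slides. Of 13 feedback inhibitors 9 were higher and 3 lower in Huh7 than in Huh1 controls, beside 39.3% and 38.6% of all genes. Among the higher ones were the Sprouty inhibitors of receptor kinase signaling SPRY2 (2.77, adjusted p = 1.41e-11, limma) and SPRY4 (2.01, adjusted p = 4.88e-06). LRIG3, which is not a Sprouty gene, was higher too (1.76, adjusted p = 2.5e-10, limma). The 3 lower feedback inhibitors are not named. Of 12 genes induced by ERK 3 were higher and 8 lower, where 77.9% of all genes were called in either direction. The higher ones were the ETS factors ETV1, ETV4 and ETV5 (5.25, 5.35 and 2.36), and the lower ones included EGR1 (-3.00), FOS (-2.42), EMP1 (-7.40) and FOSL1, which was at least 44.5-fold higher in Huh1. ETV1 was well above background on 2 of 3 Huh1 control arrays, and EMP1 on 2 of 3 Huh7 control arrays.

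For members whose brightest probe spanned at least 2 log2 units over the 6 group means, the genes of most similar pattern were sought, each gene centred on its own mean. The root mean square difference from ERBB2 was 0.093 for SKP2, 0.117 for HOOK1 and 0.128 for LIPT2. For AREG the nearest genes were CC2D2A (0.210), OR7G1 (0.268) and NEXN (0.291), and for BTC they were CLEC2B (0.215), COL12A1 (0.278) and GPR37L1 (0.295). HBEGF was followed less closely, by KCNK12 (0.286), RYR3 (0.341) and TOGARAM2 (0.361), and EREG by NRADDP (0.244), ZNF233 (0.263) and SPACA1 (0.281). These are descriptions over 6 groups.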

How the data were processed

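EpCAM+ cells of Huh1 and Huh7 were measured on 18 1-colour Agilent arrays in 6 groups of 3, grouped by the sample labels. The authors deposited, per array, Agilent Feature Extraction 10.7.1.1 output (version from the submitters' processing notes), whose processed intensity is background-subtracted and linear. A second deposited table holds normalized intensity, each array divided by its own 75th percentile, in which 100% of probes lay within 0.05 log2 of a constant from the scanner files.

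The log2 of the processed intensity was averaged over unflagged spots (316 to 447 spots per array were flagged, 0 saturated, 78 probes without an unflagged spot on some array were left out) and each array's 75th percentile was subtracted. Testing took the 29894 of 42327 probes that every array of some group showed well above background, and used a single limma fit of 6 groups with Benjamini-Hochberg adjustment at 0.05. With 3 arrays per group the number of arrays limits precision. A gene well above background on no array of a group was given a bound, using per array the higher of its own signal and the lowest signal well above background. On simulated data with the Huh1 DSF comparison's design, 41.8%, 74.6% and 89.4% of changes of 0.5, 1 and 2 log2 were recovered. Only 67, 67 and 66 of 29894 probes were changed there, whereas 44.2% of probes were called in the real comparison. The adjusted threshold depends on the share of probes changed, so these rates do not give the power of the real test. Of 27099 probes with a RefSeq identifier 25736 were given a symbol, and 4 more by symbol.

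The members and lists were chosen with earlier results of these data known. All member probes were named. A pathway gene was named when called alike in Huh1 and Huh7 with no overlap of treated and control arrays (at most 4 per list), or as another ERBB ligand. Apart from FOSL1, the genes named for the comparison of untreated lines were not chosen by this rule. A gene that met this rule is not reported here.

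Alternatives were normexp (offset 50, on the median signal, since the mean signal planned is not among the columns used here), quantile, median and spike-in scaling (7 probes with mean log2 above 8), the authors' table, other filters, flagged spots kept, a fit per line, slide or replicate number as a block, the study's thresholds, each array left out and, chosen after seeing the data, arrays of a single slide. Replicate numbers did not pair the samples: deviations of same-numbered arrays correlated at -0.093 to 0.009. Tools were R 4.3.3, limma 3.58.1, Python 3.11.15, pandas 2.3.3, numpy 2.4.6 and matplotlib 3.10.9.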

Additional observations from a re-analysis of the deposited data

Results flagged for a closer look

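The following changes against control differed between the lines in limma's test of the difference itself, given as log2 values with the Huh1 effect subtracted from the Huh7 effect. For DSF these were EGFR A_23_P215790 (-0.76) and A_33_P3351944 (-0.41), ERBB3 A_23_P349416 (0.55) and A_33_P3280471 (-1.0), AREG A_23_P259071 (0.55) and A_33_P3419190 (0.70), EREG (-0.95), HBEGF (0.70) and ERRFI1 (-1.34). For 5-FU they were EGFR A_23_P215790 (-0.78), ERBB3 A_23_P349416 (0.68) and A_33_P3211569 (0.79), AREG A_23_P259071 (1.14) and A_33_P3419190 (1.23), EREG (-1.82), HBEGF (1.93) and ERRFI1 (-1.46). The DSF arrays of each line lay on more than 1 slide, and within a slide the DSF differences of EGFR A_33_P3351944, ERBB3 A_23_P349416, both AREG probes and EREG no longer passed (limma, adjusted p = 0.0976, 0.056, 0.0859, 0.0982 and 0.111). Their values there were -0.43, 0.49, 0.57, 0.65 and -0.76, with 1 Huh7 DSF array in that fit. The DSF difference of HBEGF was 0.12 with normexp correction (limma, adjusted p = 0.436).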

How the results depend on the processing

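Of 126 member changes, the direction and side of the threshold were kept in 126 with the authors' table and with outlier spots kept, 124 without the filter on dim probes, 123 with only probes above background on all arrays, 120 with quantile normalization, 114 with median scaling, 109 with normexp, 107 with slide as a block and 87 with spike-in scaling. They were also kept in 78 of 84 with a fit per line and 91 of 112 within a slide. The replicate numbers did not pair the samples, and with the replicate block 123 of 126 were kept: EGFR A_33_P3351955 after DSF in Huh1 passed (0.93, limma adjusted p = 0.0493), and ERBB3 A_33_P3211569 after DSF in Huh7 (adjusted p = 0.0691) and ERBB2 for DSF against 5-FU in Huh7 (adjusted p = 0.0503) no longer did. The rises of AREG, HBEGF and BTC after both drugs and the DSF falls of ERBB2 and ERBB3 A_23_P349416 kept direction and call under every one of these alternatives. Signs turned with normexp for EGFR A_33_P3351955 (DSF Huh7 -0.088, 5-FU Huh7 -0.14, DSF against 5-FU in Huh7 0.051), ERBB3 A_33_P3280471 (5-FU Huh1 -0.23), FOSL1 (5-FU Huh7 -0.11), ERBB3 A_33_P3211569 (control lines -0.0041), ERBB2 (line difference for DSF -0.028) and EGFR A_33_P3351944 (line difference for 5-FU 0.12). The last 2 were -0.021 and 0.076 with quantile normalization. With median scaling TGFA after DSF in Huh1 was -0.12, ERBB3 A_33_P3211569 between control lines -0.10 and EGFR A_33_P3351944 in the 5-FU line difference 0.047.
Spike-in scaling, whose construction moved the median of all probes by the amounts given in the report, lowered the calls after DSF in Huh7. The member probes called there went from 10 to 6 and the pathway genes from 30 to 19, and EGFR A_33_P3351955 was -0.14. For 5-FU in Huh1 it turned ERBB2 to 0.37, ERBB3 A_23_P349416 to 0.30, ERBB3 A_33_P3211569 to 0.72, TGFA to 0.60, MYC to 0.42, TIMP3 to 0.31, NRG4 to 0.50, PIK3CB to 0.47, AKT1 to 0.36, AKT2 to 0.44, MAPK3 to 0.12, ARAF to 0.52 and EPS15 to 0.18. For 5-FU in Huh7 it turned EGFR A_23_P215790 to 0.79, ERBB2 to 0.33, TGFA to 0.49, ERRFI1 to 0.53, RHBDF2 to 0.14, TIMP3 to 0.50, NRG4 to 0.52, PIK3CB to 0.46, AKT1 to 0.76, AKT2 to 0.81, MAPK3 to 0.16 and ARAF to 0.71. For DSF against 5-FU it turned EGFR A_23_P215790 (-0.052), EGFR A_33_P3351955 (-0.34), ERBB3 A_33_P3280471 (-0.28), HBEGF (-0.49), TGFA (-0.42) and ERRFI1 (-0.50) in Huh1, and EGFR A_23_P215790 (-0.49), EREG (-0.83), TGFA (-0.29) and ERRFI1 (-0.85) in Huh7. Of the line differences it turned ERBB2 (-0.26) and ERBB3 A_33_P3211569 (-0.27) for DSF and EGFR A_33_P3351944 (0.15) for 5-FU.
With slide as a block 5 member probes differed between lines in the DSF effect, against 9. The block and the fit within a slide both gave EGFR A_33_P3351955 as -0.30 and 0.011 for DSF against 5-FU in Huh1 and Huh7. The block gave -1.49 for this probe between control lines. With each array left out, the member probes called for DSF numbered 11 to 13 in Huh1 and 8 to 10 in Huh7. For 5-FU they numbered 10 to 11 in Huh1 and 9 to 11 in Huh7. Signs turned for the line differences of ERBB3 A_33_P3211569 for DSF (-0.0004 to 0.10) and of EGFR A_33_P3351944 (-0.12 to 0.10) and BTC (-0.13 to 0.28) for 5-FU, and for EGFR A_33_P3351955 (Huh1 -0.30 to 0.76, Huh7 -0.18 to 0.0096) and ERRFI1 (Huh1 -0.092 to 0.34) in DSF against 5-FU. EGFR A_33_P3351955 after DSF in Huh7 ranged from -0.0061 to 0.10. The cause of these changes was not tested. The study's thresholds of fold and unadjusted p were applied to limma's p, without its rule for genes switched on or off. By these, 13, 9, 10 and 9 member probes passed in the 4 comparisons with control. Precision is limited by 3 arrays per group and, for HBEGF, BTC and the dim probes of EGFR and ERBB3, by signal near background.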
